A study of Mus musculus with 12 samples.

Results

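Single cells labelled as haematopoietic stem cells (HSC) of mouse fetal liver were compared with single cells carrying the same label from the aorta-gonad-mesonephros region (AGM) of the embryo. The fetal liver cells fill 5 plates with 2 origin codes in their titles, and the AGM cells fill 2 plates with 1 code, so the comparison uses 7 of the 12 plates of the series. Wells were kept as cells with at least 1000 genes, at least 3000 UMIs (unique molecular identifiers, which count RNA molecules) and under 20% of UMIs from the mitochondrial genome. This left 143 AGM and 454 fetal liver cells of 1020 in all. The labels give tissue and cell type for these plates and name no age, strain, genotype, treatment or sorted surface markers. The series as a whole was designed around mouse lines for lineage recording, but which line gave these cells is not stated in the sources used here. RNA was taken from the cytoplasm after nuclei had been captured on beads, and was read by a tagged reverse transcription method for single cells.

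The first stem cells of the blood arise in the AGM from the endothelium of the dorsal aorta, through an intermediate that carries endothelial and blood genes at once. They then seed the fetal liver, where the pool of stem cells grows before it moves to the bone marrow. Leaving the vessel wall is known to involve loss of endothelial junctions and of arterial Notch signalling, while receptors, adhesion molecules and immune genes of blood cells come up.

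UMIs were summed per origin code, giving 1 AGM library and 2 fetal liver libraries. It is not stated if a code stands for 1 animal or several, so p-values measure the spread between libraries, which the fit took from fetal liver and from 2 bone marrow libraries of the series. With AGM and fetal liver alone 2218 genes were called in place of 748. The spread of AGM was not measured, and tissue and origin cannot be told apart for it. A median cell held 159228 UMIs in AGM and 54303 in fetal liver. In AGM 512 UMIs came from Xist and 511 from the Y chromosome, with 33 cells showing Xist alone, 39 Y chromosome transcripts alone, 9 both and 62 neither, so it holds cells of more than 1 embryo. For fetal liver the numbers were 820 and 2 on plates 1 to 3, and 1 and 1035 on plates 4 and 5. All 12 plates carry the same 96 well barcodes, which name positions and not shared cells.

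Fetal liver plate 5 stood apart. Among 3272 genes averaging 50 CPM or more over the 7 plates (CPM are UMIs scaled to the same library size of 1000000), 316 were over 3-fold lower and 16 over 3-fold higher on plate 5 than on plate 4 of the same code. The other same-code pairs of plates had between 3 and 11 such genes in all. Plate 5 also had the lowest median depth, 35267 UMIs a cell, against 49272.5 to 75735 on the other fetal liver plates. Some of the results that rest on it are given with and without it. Without plate 5 the test called 367 genes higher and 229 lower, and 362 and 226 of these were among the calls made with it.

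Of 15472 tested genes, 452 were called higher in fetal liver (2.92%) and 296 lower (1.91%) at an adjusted p under 0.05, and 2387 had an unadjusted p under 0.05. The median fold was 5.50 among the higher and 5.77 among the lower genes. Fetal liver plates did not overlap the AGM plates for 397 of the 452 and 290 of the 296, where 12.1% and 14.5% of all tested genes showed such a gap in each direction. AGM cells with Xist alone and AGM cells with Y chromosome transcripts alone were set against both fetal liver libraries. Both lay on the same side for 450 of the 452 and 295 of the 296. These cells are part of the AGM library that gave the calls, so this is a description. Its share over all tested genes was not taken. The calls depended on plate 4: without it 111 genes were higher and 70 lower. Plates 4 and 5 share a code, so without plate 4 the library of that code was plate 5 alone. The reason was not tested.

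**Figure D1:**
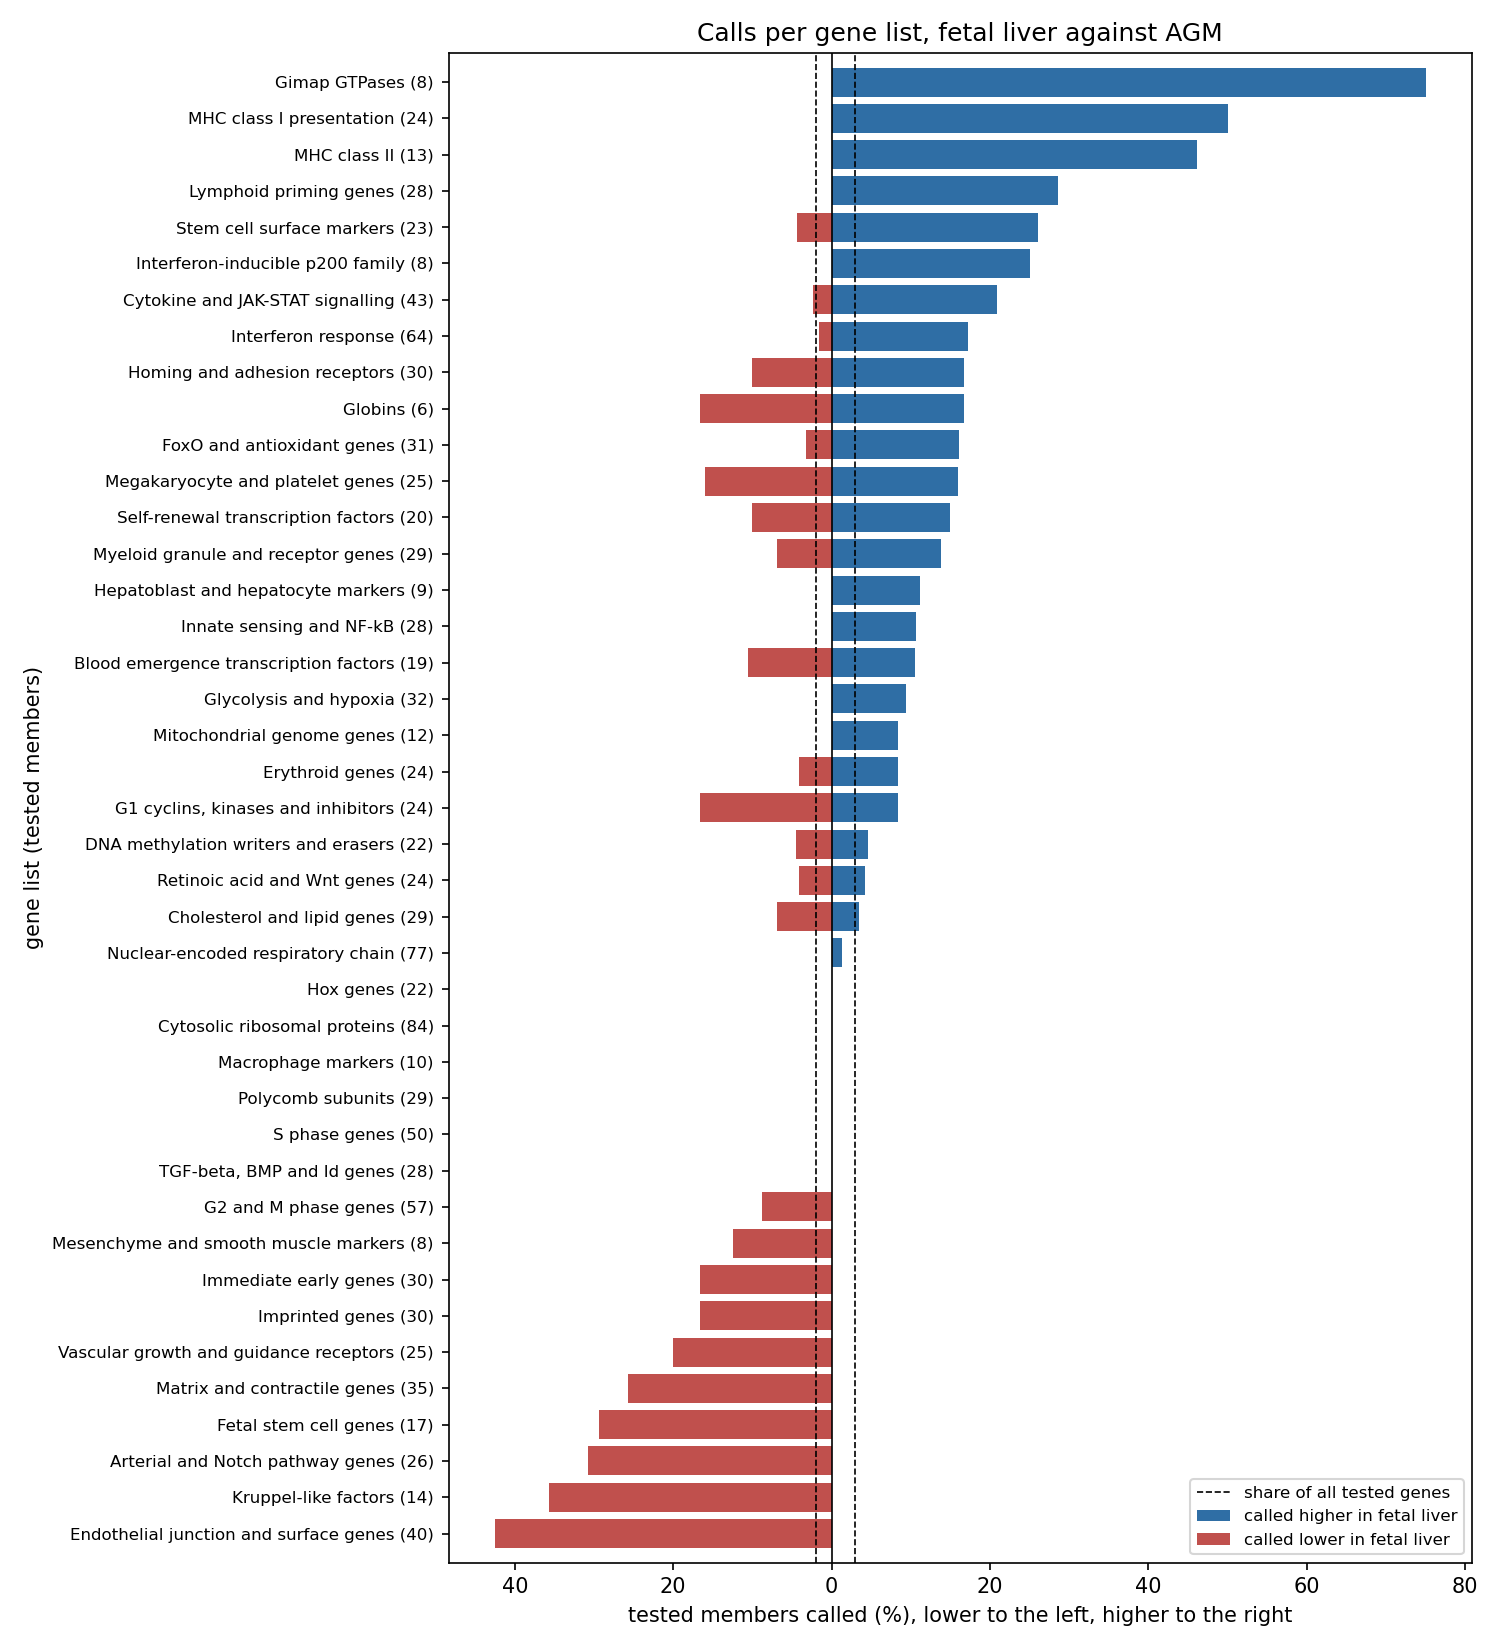
Percent of the tested members of each gene list that were called higher (blue, to the right) or lower (red, to the left) in fetal liver than in AGM, with the number of tested members in brackets. Dashed lines mark the shares among all tested genes, 2.92% and 1.91%. Endothelial, Kruppel-like and arterial genes lie to the left, and Gimap, MHC class I and MHC class II genes to the right.

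Endothelial genes were lower in fetal liver. Of 40 tested genes of endothelial junctions and surface 17 fell, none rose and 23 did not pass, with a median log2 fold change of -2.03 against 0.047 over all tested genes. The summed level of the list was 4067 CPM in AGM, 1693 CPM on fetal liver plates 1 to 3 and 1740 CPM on plates 4 and 5. Cdh5, the cadherin of endothelial junctions, had 120 and 75.7 CPM on the AGM plates and 4.45, 0.413, 0.210, 0.118 and 7.74 CPM on fetal liver plates 1 to 5. Every AGM plate was higher than every fetal liver plate, and the log2 fold change was -5.65 ± 0.59 (adjusted p = 3.35e-06). Sox7, an endothelial transcription factor, had 1213 UMIs in AGM and 1 in fetal liver. Pecam1, an adhesion molecule of endothelium and blood, was still found in fetal liver, at 37.5, 16.1, 14.9, 26.4 and 41.1 CPM against 132 and 130 CPM in AGM. Its fold change was -2.24 ± 0.41 (adjusted p = 0.00165), a call lost without plate 4.

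Some endothelial genes did not pass. Egfl7, a secreted vascular factor, had 578 CPM in AGM and 543 CPM in fetal liver. Emcn, a surface sialomucin, had 113 and 122 CPM, Esam, a junction molecule that stem cells also carry, 243 and 176 CPM, and Eng, a co-receptor for TGF-beta, 160 and 116 CPM. Without plate 4 10 genes of the list were lower, without plate 5 15, and without AGM plate 1 13.

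The arterial programme was among the largest falls. Of 26 tested arterial and Notch pathway genes 8 fell and none rose, with a median log2 fold change of -2.93. Nrp1, a neuropilin that binds semaphorins and vascular growth factors, had 168 and 108 CPM in AGM, where 83.2% of cells held a UMI (95% exact interval 76.1 to 88.9%), and 1 UMI in all 454 fetal liver cells, a ratio of 4038 (counting interval 724 to 159500). Gja5, a connexin of arterial endothelium like Gja4, had 1371 UMIs in AGM and 1 in fetal liver. Hes1, a repressor that Notch switches on, had 323 and 193 CPM in AGM and 18.7, 5.78, 56.2, 26.5 and 3.37 CPM in fetal liver. The fetal liver plates of Hes1 were spread over more than 10-fold and still lay below AGM (log2 fold change -3.56 ± 0.32, adjusted p = 4.20e-07). Sox17, a transcription factor of arterial and hemogenic endothelium, had 82.2 and 35.6 CPM in AGM and 0 to 3.15 CPM on the fetal liver plates. Bmx, a kinase of arterial endothelium, fell from 69.8 to 2.22 CPM. Mfng, which modifies Notch receptors, stood at 246 and 211 CPM and did not pass.

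Of 25 tested receptors of vascular growth and guidance 5 fell and none rose. Kdr, the main receptor for vascular endothelial growth factor, had 56.8 and 43.0 CPM in AGM, no UMI on fetal liver plates 1 to 3, and 1.65 and 0.337 CPM on plates 4 and 5 (log2 fold change -6.36 ± 1.32, adjusted p = 0.00513). Flt1, a decoy receptor for the same factor, fell from 46.4 to 1.05 CPM. Tie1 fell less, from 111 to 35.8 CPM, a call lost without plate 4. Angpt1, a ligand of the Tie receptor system made by stem cells, had 107 and 110 CPM and did not pass. None of 28 tested TGF-beta, BMP and Id genes was called in either direction, and 19 of them had lower values in fetal liver.

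Matrix and contractile genes followed, with 9 of 35 lower, none higher and a median log2 fold change of -2.67. Sparc, a secreted matrix protein, had 395 and 312 CPM in AGM and 6.23, 5.57, 0.210, 3.06 and 4.71 CPM in fetal liver. It was found in 98.6% of AGM cells and 4.41% of fetal liver cells, and in 90.1% and 2.63% once every cell was thinned to 20000 UMIs (log2 fold change -6.53 ± 0.37, adjusted p = 1.35e-09). Fn1, fibronectin, fell from 166 to 7.75 CPM, and Sparcl1 had 947 UMIs in AGM and none in fetal liver. Acta2, smooth muscle actin, had 60.7 and 48.6 CPM in AGM and 2 UMIs in fetal liver. Of the other defining mesenchyme markers, Pdgfra, Pdgfrb, Col1a1, Col1a2 and Dcn stood between 0.392 and 0.927 CPM in AGM, Tagln, a smooth muscle protein, had 1.32 CPM in AGM and 0.0885 CPM in fetal liver and did not pass, and Col3a1 had 0 CPM in both tissues.

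**Figure D2:**
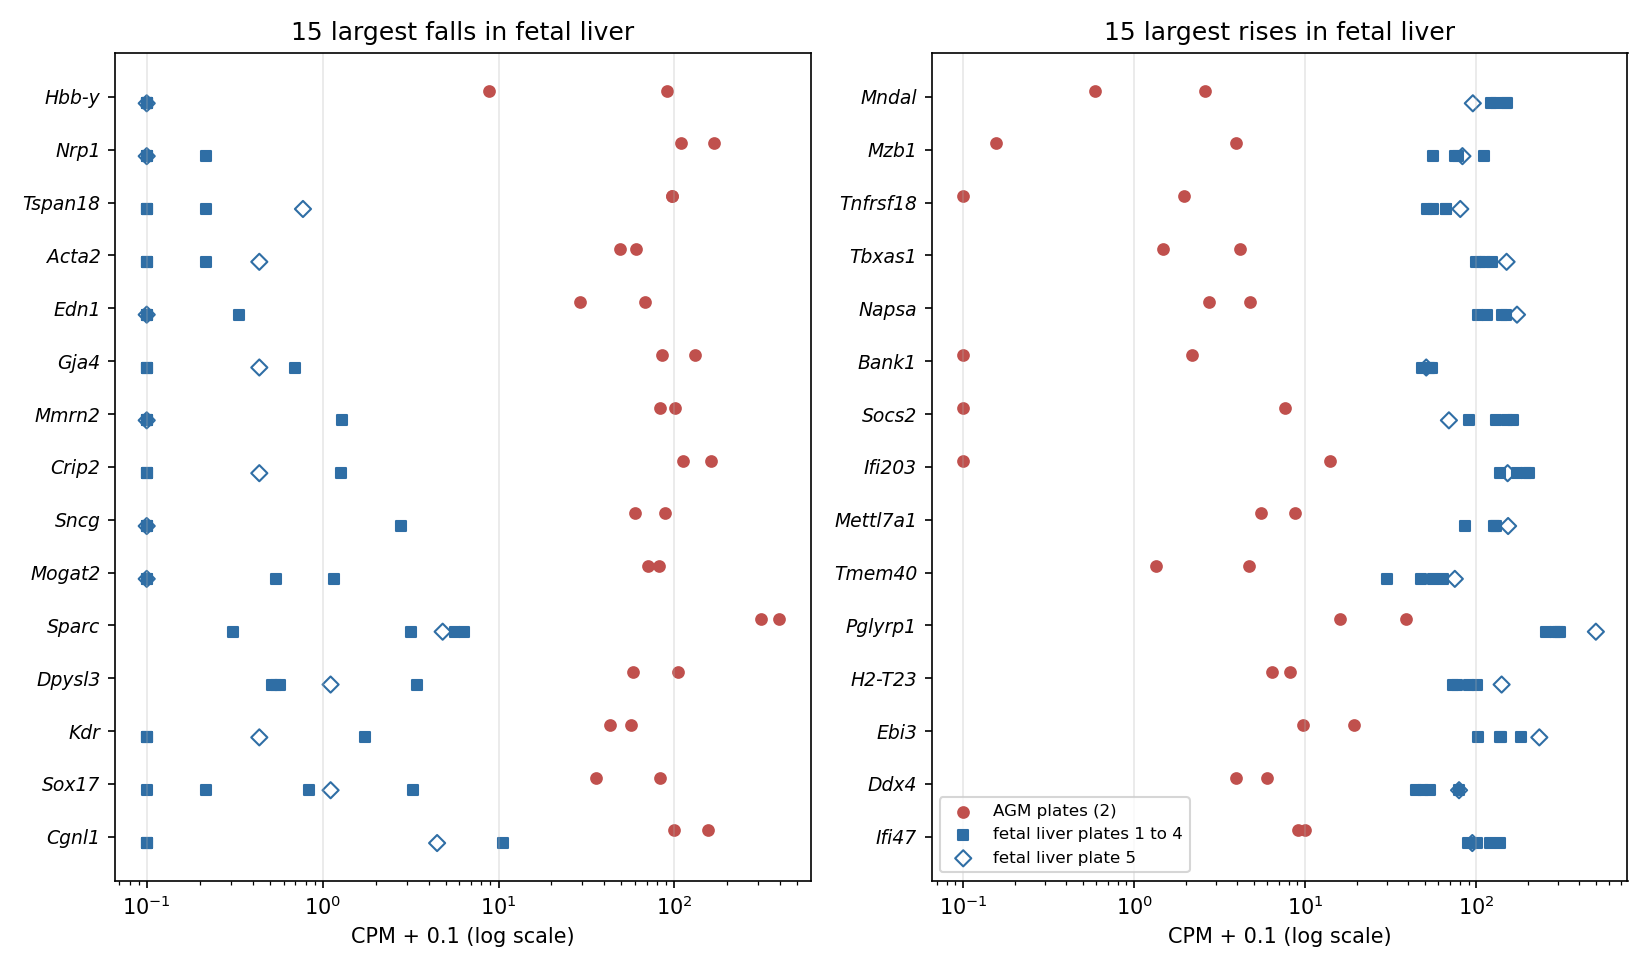
CPM plus 0.1 on a log scale for each plate, for the 15 largest falls (left) and the 15 largest rises (right) among called genes that reach 50 CPM in the tissue where they are higher and whose plates are separate. Red circles are the 2 AGM plates, blue squares fetal liver plates 1 to 4 and open diamonds plate 5. Points at 0.1 are plates with no UMI. The gene choice used this comparison, so the gap between the tissues is a description.

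The leading falls also held genes outside the vascular lists. Cgnl1, a junction protein, had 154 and 100 CPM in AGM and no UMI on fetal liver plates 1, 2 and 4, with 10.5 CPM on plate 3 and 4.38 on plate 5. Dpysl3, a protein of the cytoskeleton known from neurons, fell from 87.7 to 0.957 CPM. Mogat2, an enzyme of triglyceride synthesis, fell from 74.2 to 0.491 CPM, and Sncg, gamma-synuclein, from 78.3 to 0.401 CPM. Among the leading rises, Tbxas1, the synthase of thromboxane, had 1.37 and 4.04 CPM in AGM and 99.1 to 150 CPM in fetal liver (log2 fold change 5.66 ± 0.37, adjusted p = 6.89e-09). Napsa, an aspartic protease, rose from 3.32 to 132 CPM, and Tnfrsf18, a receptor of the tumour necrosis factor family, from 1.21 to 61.8 CPM. Pglyrp1, which binds bacterial cell walls, rose from 23.6 to 323 CPM. Bank1 and Mzb1, known from B cells, rose from 1.35 to 53.5 and from 1.35 to 87.9 CPM, and in both 1 AGM cell held 55.3% of the AGM UMIs.

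Of the 30 leading genes, 23 were called in every alternative that gave a value. The exceptions were Crip2, Ddx4, Hbb-y, Kdr, Mmrn2, Mzb1 and Sncg.

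The leading genes were also counted in each cell. They were chosen from this same comparison, so a split between the tissues is favoured in advance, and whether they occur together within a tissue was not tested. After thinning, an AGM cell held a median of 7 of the 15 leading falls and 0 of the 15 leading rises, and a fetal liver cell 0 and 8. More falls than rises were found in 134 of 141 AGM cells and in 0 of 419 fetal liver cells, while 388 fetal liver cells and 0 AGM cells held at least 5 of the rises. Among fetal liver plates the median number of rises ran from 7 on plate 3 to 11 on plate 5. Wells below 20000 UMIs were left out here, 2 in AGM and 35 in fetal liver. Without thinning and with at least 3 UMIs asked for, the medians were 9 falls and 0 rises in AGM and 0 and 7 in fetal liver.

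**Figure D3:**
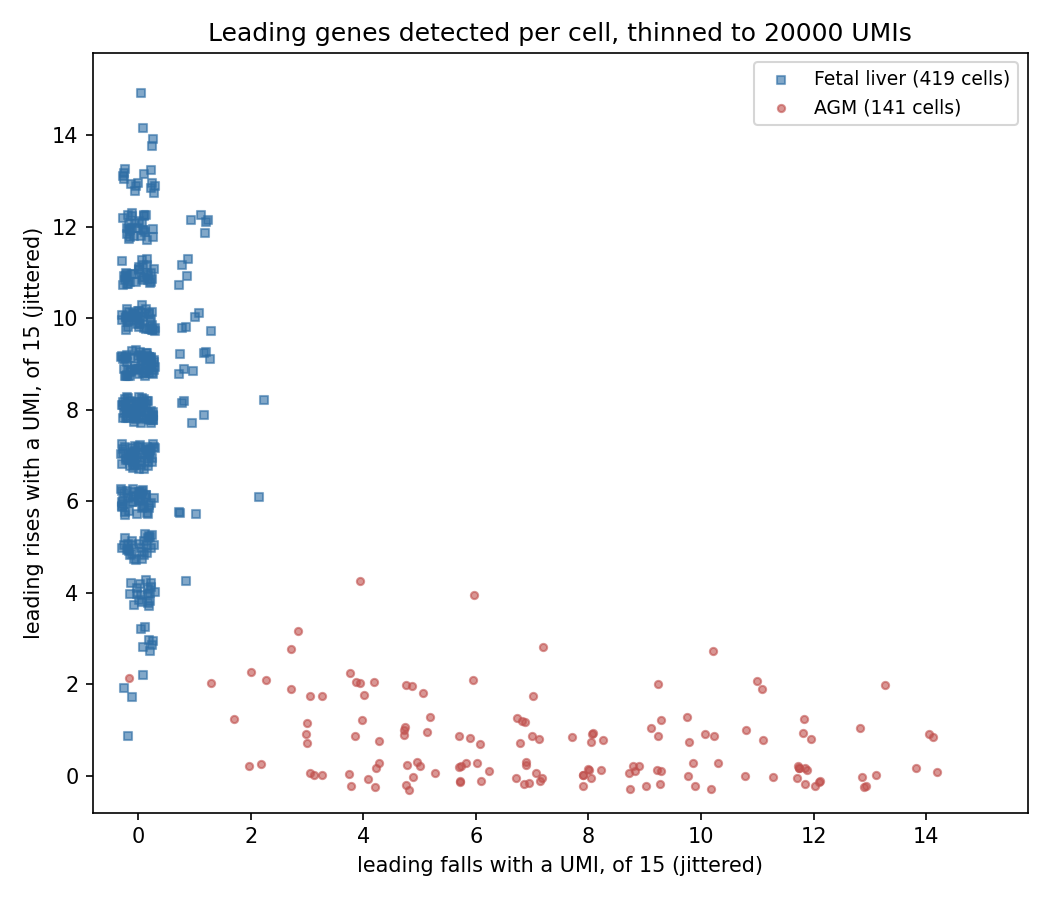
Each point is a cell thinned to 20000 UMIs, 141 from AGM (red circles) and 419 from fetal liver (blue squares), with the number of leading falls (horizontal) and leading rises (vertical) in which it had a UMI, of 15 each. Points are jittered. The genes were chosen from the same cells, so the separation is a description. No fetal liver cell had more than 2 falls and no AGM cell more than 4 rises.

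Genes that present antigen on MHC class I were higher in fetal liver. Of 24 tested members 12 rose, none fell and 12 did not pass, with a median log2 fold change of 1.80. Class I molecules show peptides cut by the proteasome on the surface of nearly all cells. Their genes answer to interferon through short promoter motifs, so promoters of 3 genes with such letters (the class I genes H2-T23 and B2m, and Tgtp2 of the interferon response) and of the class I list's Psmb9, which has none, are shown, chosen after their values were seen. The sequences come from RefSeq (GRCm38.p6), run from 250 bases before to 50 after the start of transcription, and are printed in the direction of the gene. Capitals mark GAAA, any 2 bases and GAAA again, the core of an interferon-stimulated response element (ISRE-like), or GGGA, any base and TTTCC (NF-kB-like), on either strand. Other motifs searched are not in capitals.
H2-T23, chr17:36032652-36032951, minus strand: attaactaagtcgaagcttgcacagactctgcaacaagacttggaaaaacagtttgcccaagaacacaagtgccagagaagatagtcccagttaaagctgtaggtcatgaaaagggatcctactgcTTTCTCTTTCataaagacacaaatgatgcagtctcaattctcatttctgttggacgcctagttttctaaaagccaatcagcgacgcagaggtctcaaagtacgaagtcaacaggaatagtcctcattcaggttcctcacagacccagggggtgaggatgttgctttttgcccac
B2m, chr2:122147437-122147736, plus strand: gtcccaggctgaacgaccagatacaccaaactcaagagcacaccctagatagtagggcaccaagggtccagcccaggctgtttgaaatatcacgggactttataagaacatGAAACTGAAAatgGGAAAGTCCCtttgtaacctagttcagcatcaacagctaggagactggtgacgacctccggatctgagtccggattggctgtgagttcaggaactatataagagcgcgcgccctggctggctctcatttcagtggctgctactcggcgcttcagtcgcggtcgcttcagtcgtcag
Tgtp2, chr11:49064163-49064462, minus strand: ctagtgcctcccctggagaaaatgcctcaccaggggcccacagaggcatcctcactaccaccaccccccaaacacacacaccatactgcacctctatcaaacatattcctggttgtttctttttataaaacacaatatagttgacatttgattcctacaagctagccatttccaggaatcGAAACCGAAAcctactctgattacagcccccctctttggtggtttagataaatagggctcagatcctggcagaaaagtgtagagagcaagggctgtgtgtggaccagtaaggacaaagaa
Psmb9, chr17:34187281-34187580, minus strand: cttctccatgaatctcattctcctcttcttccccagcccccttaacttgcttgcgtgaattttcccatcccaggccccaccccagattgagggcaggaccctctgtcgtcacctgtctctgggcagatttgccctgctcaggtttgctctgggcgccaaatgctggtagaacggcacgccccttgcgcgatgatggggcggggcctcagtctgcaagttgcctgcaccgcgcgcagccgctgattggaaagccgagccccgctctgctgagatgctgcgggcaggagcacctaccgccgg

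H2-T23 and B2m carry 1 ISRE-like match each, and B2m an NF-kB-like match 3 bases further on. The ISRE-like letters were found in 7 of the 19 class I and interferon genes called higher that had a promoter in the table (36.84%), namely B2m, Gbp2, H2-T22, H2-T23, Shisa5, Tgtp1 and Tgtp2. They were found in 3.82% of 11615 tested genes with a promoter, in 7.10% of 338 genes called higher, in 5.02% of 219 called lower and in 3.44% of all 32851 promoters. In all, 6 motifs were searched on both strands. Over the same 19 genes, all tested genes and all promoters, NF-kB-like letters were in 5.26%, 0.52% and 0.41%, and ETS-like letters (ACAGGAAGT) in 0%, 1.49% and 1.03%. The cyclic AMP element (TGACGTCA) was in 5.26%, 3.41% and 1.79%, CCAAT in 63.16%, 42.46% and 37.41%, and TATAAA in 31.58%, 9.24% and 13.62%. The windows of Psmb9 and Tap1, which lie head to head, overlap by 275 bases and hold neither capitalised motif. Members of the same lists that were not called were not counted apart, so these shares cannot tie the letters to the rise in fetal liver. A match is a description of letters, and no test was made.

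Psmb9, which replaces a standard proteasome subunit in the immunoproteasome (chromosome 17, 34181987 to 34187764), had 14.1 and 25.3 CPM in AGM and 167, 166, 185, 195 and 229 CPM in fetal liver. Its plates were tight in fetal liver and far above AGM (log2 fold change 3.41 ± 0.31, adjusted p = 4.20e-07), and 33.6% of AGM and 92.3% of fetal liver cells held a UMI. H2-T23, which encodes Qa-1, a class I molecule outside the classical set, had 7.996 and 6.33 CPM in AGM and 101, 90.4, 72.8, 77.3 and 140 CPM in fetal liver (3.65 ± 0.33, adjusted p = 4.81e-07). B2m, the light chain of every class I molecule, was already high in AGM, at 844 and 914 CPM, and reached 2115 to 3095 CPM in fetal liver (1.57 ± 0.31, adjusted p = 0.00318). The call of B2m was lost without plate 4. H2-K1 and H2-D1, the classical chains, rose from 107 to 602 and from 125 to 447 CPM. Tap1 and Tap2, which carry peptides into the endoplasmic reticulum, rose from 10.2 to 37.7 and from 2.78 to 22.01 CPM. H2-Q6 and H2-Q7 had 27 and 208 UMIs in fetal liver and none in AGM, but these near-identical copies may share reads. Psme1, an activator of the proteasome, had 406 and 668 CPM and did not pass. Without plate 4 5 of the 24 were higher, and without plate 5 12.

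MHC class II presentation had 6 of 13 members higher and none lower, at low levels. Cd74, the invariant chain that guides class II molecules, had no UMI in 143 AGM cells, which allows up to 2.10% of cells to hold one (3 counts of the cells measured) and sets no limit on cells that express it below detection. In fetal liver it had 16.0, 23.5, 34.4, 16.1 and 22.9 CPM, was found in 24.7% of cells (exact 2-sided interval 20.8 to 28.9%, and 0 to 2.55% in AGM) and was at least 201-fold higher (adjusted p = 5.23e-08). H2-DMb1, part of the peptide exchanger of class II, had 0 CPM in AGM and 6.09 to 20.5 CPM in fetal liver, at least 114-fold higher. Its partner H2-DMa had 2.68 and 4.87 CPM in AGM and 25.8 to 37.0 CPM in fetal liver (log2 fold change 3.31 ± 0.34, adjusted p = 2.23e-06). The class II chains themselves were scarce: H2-Aa had 1 and 19 UMIs, and H2-Ab1 2 and 33, in AGM and fetal liver. The other 2 chains had more UMIs in AGM and did not pass, H2-Eb1 with 32 and 16 and H2-Eb2 with 5 and 3. The defining macrophage markers were low in both tissues, where the macrophage list summed to 10.5 CPM in AGM, 6.78 CPM on fetal liver plates 1 to 3 and 25.5 CPM on plates 4 and 5, and none of 10 was called. Their part in the class II values was not tested.

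Of 64 interferon response genes 11 rose and 1 fell, with a median log2 fold change of 0.72. Ifitm1, a membrane protein that blocks virus entry, had 561 and 806 CPM in AGM and 2111 to 3700 CPM in fetal liver (1.96 ± 0.34, adjusted p = 0.00103). Tgtp2, an interferon-induced GTPase, had 5 UMIs in AGM and 14.8 to 33.8 CPM on the fetal liver plates (6.78 ± 0.71, adjusted p = 2.35e-06), and shares a near-identical neighbour, Tgtp1. Sp100, a nuclear body protein, had 4.49 and 0 CPM in AGM and 19.9 to 41.0 CPM in fetal liver, a call lost without plate 4. Bst2, tetherin, went the other way, from 390.5 to 152 CPM. Ifitm2 had 1008 and 1387 CPM and did not pass. Casp1, the protease of inflammasomes, was found in 0 AGM cells and 21.4% of fetal liver cells, at least 143-fold higher, whereas its adaptor Pycard had 129 and 211 CPM and did not pass.

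Of 8 tested p200 genes, interferon-inducible sensors of nucleic acid that lie in 1 cluster, 2 rose and none fell. Mndal had 0.493 and 2.49 CPM in AGM and 151, 122, 148, 130 and 95.3 CPM in fetal liver, and was found in 2.80% and 64.5% of cells (log2 fold change 6.81 ± 0.40, adjusted p = 1.96e-09). Ifi203 had 13.9 and 0 CPM in AGM and 137 to 202 CPM in fetal liver (4.30 ± 0.35, adjusted p = 1.00e-07). Members of this family are similar in sequence and may share reads.

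The Gimap family, GTPases of blood cells encoded in 1 cluster and known for lymphocyte survival, had 6 of 8 members higher, none lower and a median log2 fold change of 1.92. Gimap7 had no UMI in AGM and 16.2, 14.9, 17.0, 22.2 and 35.3 CPM in fetal liver, at least 189-fold higher (adjusted p = 9.00e-05). Gimap3 had 2 UMIs in AGM and 615 in fetal liver, a ratio of 313 (95% counting interval 86.3 to 2592). Gimap6 was abundant in both tissues, with 300.2 and 325 CPM in AGM and 538 to 919 CPM in fetal liver (log2 fold change 1.20 ± 0.29, adjusted p = 0.0167). Gimap1 had 137 and 121 CPM in AGM and 336, 374, 392, 434 and 120 CPM in fetal liver, so plate 5 lay at the AGM level while the other plates were higher (1.47 ± 0.27, adjusted p = 0.00161). With plate 4 left out 2 of the 8 were higher, Gimap1 and Gimap6 not among them, and with plate 5 left out 6.

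**Figure D4:**
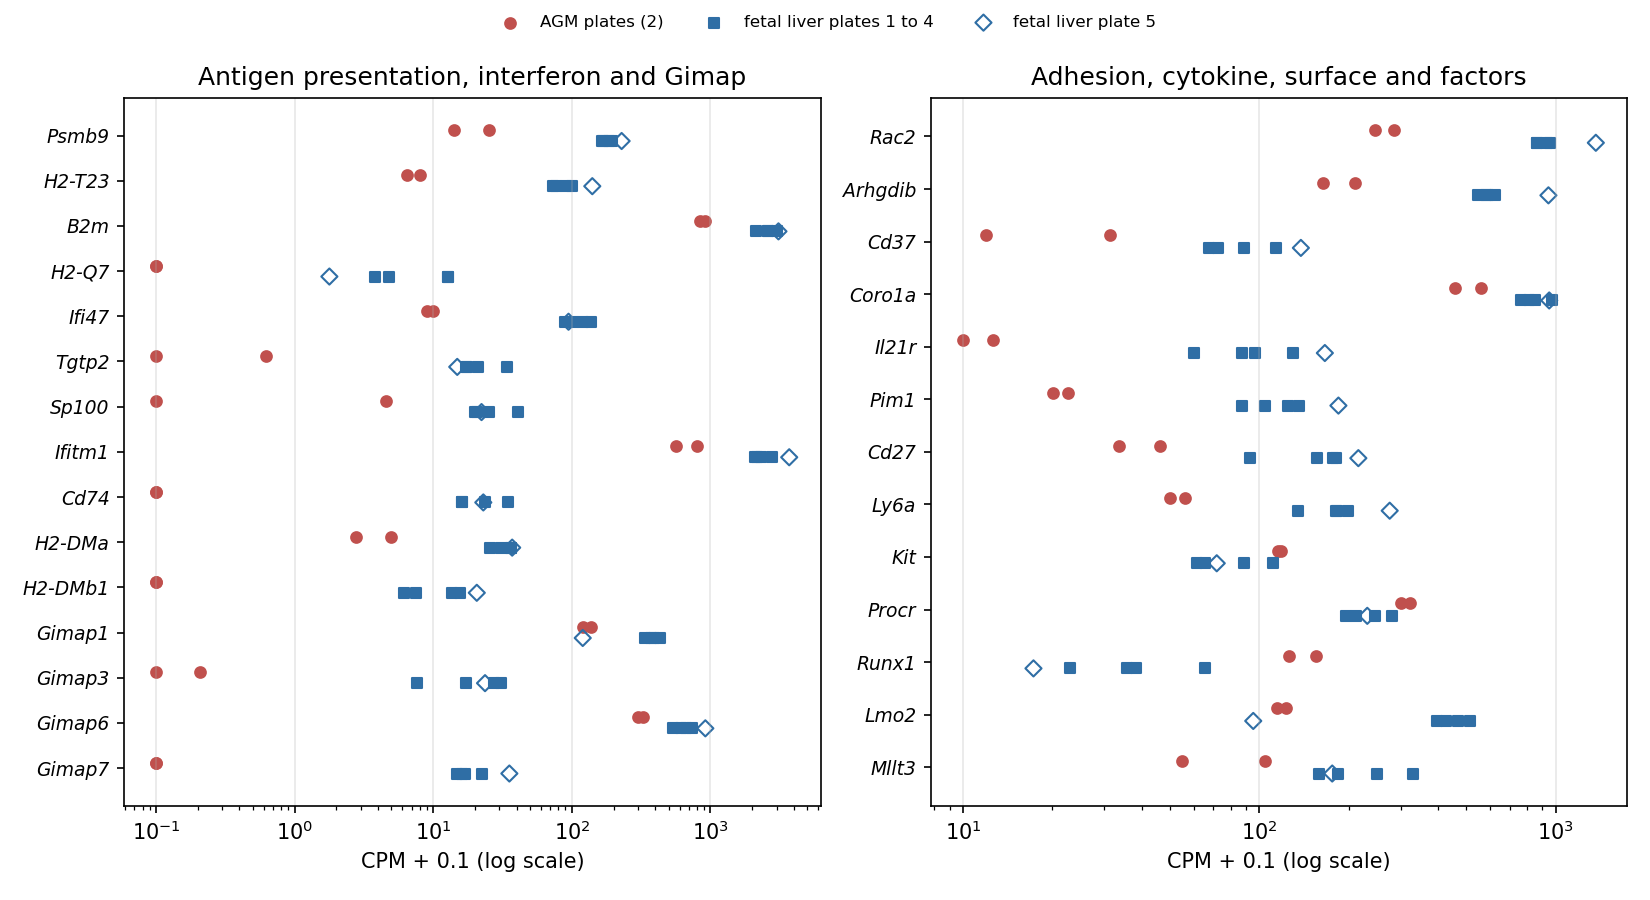
CPM plus 0.1 on a log scale for each plate, for members of the immune lists (left) and of the adhesion, cytokine, surface and transcription factor lists (right). Red circles are the 2 AGM plates, blue squares fetal liver plates 1 to 4 and open diamonds plate 5. Plate 5 lies among or below the AGM plates for Gimap1 and Lmo2, and Cd74, H2-DMb1, H2-Q7 and Gimap7 have no UMI in AGM.

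Adhesion and cytoskeletal genes of blood cells split. Of 30 tested genes of homing and adhesion 5 rose and 3 fell. Rac2, the Rac GTPase of blood cells, had 245 and 285 CPM in AGM and 864.5, 957, 864, 935 and 1368 CPM in fetal liver (log2 fold change 1.93 ± 0.28, adjusted p = 0.000132). Arhgdib, a regulator of small GTPases in blood cells, rose from 179 to 631 CPM. Cd37, a tetraspanin of leukocytes, rose from 18.5 to 95.7 CPM, Selplg, the ligand of P-selectin, from 41.0 to 172 CPM, and Fermt3, an activator of integrins, from 60.6 to 179 CPM. The falls were Cd44, the hyaluronan receptor, from 227.5 to 70.9 CPM, Itgb1, a common integrin chain, from 169 to 85.7 CPM, and Icam2, from 224 to 102 CPM. Coro1a, an actin-binding protein, had 491 and 872 CPM with plates that did not overlap and did not pass (adjusted p = 0.0631). Cxcr4, the receptor for the chemokine that holds stem cells in their niche, was low in both tissues, at 0.678 and 2.56 CPM, and did not pass.

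Of 43 cytokine and JAK-STAT genes 9 rose and 1 fell. Socs2, a feedback inhibitor of cytokine receptors, had 7.56 and 0 CPM in AGM and 91.0, 130, 150, 163 and 69.0 CPM in fetal liver (log2 fold change 4.73 ± 0.43, adjusted p = 4.20e-07). Il21r, a cytokine receptor chain, had 12.5 and 9.85 CPM in AGM and 60.01 to 166 CPM in fetal liver (3.27 ± 0.41, adjusted p = 2.32e-05). Il2rg, the chain it shares with other receptors, rose from 25.6 to 91.2 CPM, and Pim1, a kinase switched on by STAT5, from 20.8 to 130 CPM. Il11ra1 fell from 150 to 64.2 CPM, a call lost without plate 4. Ebi3, a subunit shared by 2 interleukins and outside this list, was among the leading rises, from 12.9 to 157 CPM.

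Among surface genes used to sort stem cells 6 of 23 rose and 1 fell. Cd27 had 46.1 and 33.6 CPM in AGM and 177, 156, 93.0, 182 and 216 CPM in fetal liver (log2 fold change 2.03 ± 0.34, adjusted p = 0.000671), a call lost without plate 4. Ptprc, the pan-leukocyte marker CD45, had 26.6 and 29.5 CPM in AGM and 37.6 to 94.9 CPM in fetal liver (1.31 ± 0.37, adjusted p = 0.0433), a call made in 10 of 23 alternatives. Itgb3 fell from 14.4 to 0.119 CPM. Kit, the stem cell factor receptor, had 116 and 118 CPM in AGM and 61.7 to 111 CPM in fetal liver and did not pass, and Cd34 and Procr did not pass either. The label was thus checked against Kit, Cd34 and Procr, which were found in both tissues, and against Ptprc, which was at a low level in AGM.

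Transcription factors of blood emergence changed in both directions, with 2 higher and 2 lower of 19. Lmo2, a bridging factor of the stem cell complex, had 123 and 115 CPM in AGM and 469.5, 398, 425, 514 and 95.3 CPM in fetal liver (log2 fold change 1.83 ± 0.26, adjusted p = 0.000119). Plate 5 lay below AGM, and the call was made without plate 5 but not without plate 4. Runx1, required for blood to leave endothelium, had 155 and 126 CPM in AGM and 65.7, 38.2, 22.9, 35.7 and 17.2 CPM in fetal liver (-1.91 ± 0.34, adjusted p = 0.00136), a call also lost without plate 4. Gata2 and Gfi1 did not pass, at 81.7 and 66.6 CPM and at 24.1 and 29.9 CPM. Of 20 self-renewal factors 3 rose and 2 fell. Mllt3 rose from 86.8 to 250.2 CPM, while Tcf15 fell from 38.7 to 2.92 CPM. The calls of Mllt3 and Tcf15 were lost without plate 4. None of 22 tested Hox genes was called, and Hoxa9 had 81.7 and 108 CPM and Hoxa7 132 and 137 CPM.

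Of 14 Kruppel-like factors, zinc finger regulators that include the shear-responsive Klf2 of endothelium, 5 fell and none rose. Klf2 had 43.1 and 18.3 CPM in AGM and 0 to 5.67 CPM in fetal liver (log2 fold change -5.04 ± 1.15, adjusted p = 0.0104), a call lost without AGM plate 1 and without fetal liver plate 4. Klf9 fell from 12.7 to 0.808 CPM and was called in all 23 alternatives. Klf7 and Klf13 fell from 57.7 to 9.99 and from 134 to 41.6 CPM and lost their calls without plate 4, where 1 of the 14 was lower. Without plate 5 4 were lower and 1 higher.

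Lineage genes moved in part. Of 28 lymphoid priming genes 8 rose and none fell, with Ltb, lymphotoxin beta, at 40.2 and 74.3 CPM in AGM and 430, 432, 385, 422 and 116 CPM in fetal liver (log2 fold change 2.89 ± 0.31, adjusted p = 2.90e-06). With plate 4 left out 2 of the 28 were higher, without Ltb. Of 25 megakaryocyte and platelet genes 4 rose and 4 fell: Rgs18 and Gp9 rose from 40.5 to 143 and from 46.2 to 123 CPM, and Vwf fell from 120 to 20.4 CPM. Of 29 myeloid genes 4 rose and 2 fell. Prtn3 and Mpo, enzymes of the same granules, went opposite ways, from 171 to 450.5 CPM, a call lost without plate 4 as was that of Rgs18, and from 266 to 26.02 CPM.

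Globins differed between plates and between the fetal liver origins, and of 6 tested 1 rose and 1 fell. Hba-a1, an adult alpha-globin, had 0 CPM in AGM and 8.004, 6.19, 30.8, 4.59 and 34.7 CPM in fetal liver, at least 127-fold higher (adjusted p = 0.00011). It was found in 8.70% to 13.4% of cells on plates 1 to 4 and in 46.1% on plate 5. Hbb-y, an embryonic beta-globin, had 91.2 and 8.71 CPM in AGM, was without any UMI in fetal liver and so was at least 573-fold lower there (adjusted p = 1.59e-06). On AGM plate 1 it was found in 98.9% of cells, 1 of which held 45.1% of its UMIs there, and on plate 2 in 16.7%. Its call was lost without AGM plate 1. Hbb-bt, an adult beta-globin, had 81.8 and 86.6 CPM in AGM, 1818, 2229 and 1862 CPM on fetal liver plates 1 to 3, and 2.83 and 39.4 CPM on plates 4 and 5. It was found in 100% of cells on plates 1 to 3 and in 4.35% and 51.7% on plates 4 and 5, and it was not called (adjusted p = 0.155). Summed over 12 mitochondrial genes, the level was 1259 CPM in AGM, 4238 CPM on plates 1 to 3 and 1106 CPM on plates 4 and 5, and 1 of the 12, mt-Co1, was called higher. The call of mt-Co1 was lost without plate 4. The part of free RNA or of RNA quality in these values was not tested. Of 24 erythroid genes 2 rose, 1 fell and 21 did not pass. Car2, a carbonic anhydrase, rose from 203 to 938 CPM, with 840 to 1274 CPM on the 5 fetal liver plates, and Nfe2, shared with platelets, from 119 to 265 CPM. Aqp1, a water channel of red cells and endothelium, fell from 22.1 to 1.37 CPM. The calls of Nfe2 and Aqp1 were lost without plate 4. Gata1 and Klf1, the transcription factors of red cell formation, had 14.2 and 3.17 CPM in AGM and 0.957 and 0.616 CPM in fetal liver, and did not pass.

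**Figure D5:**
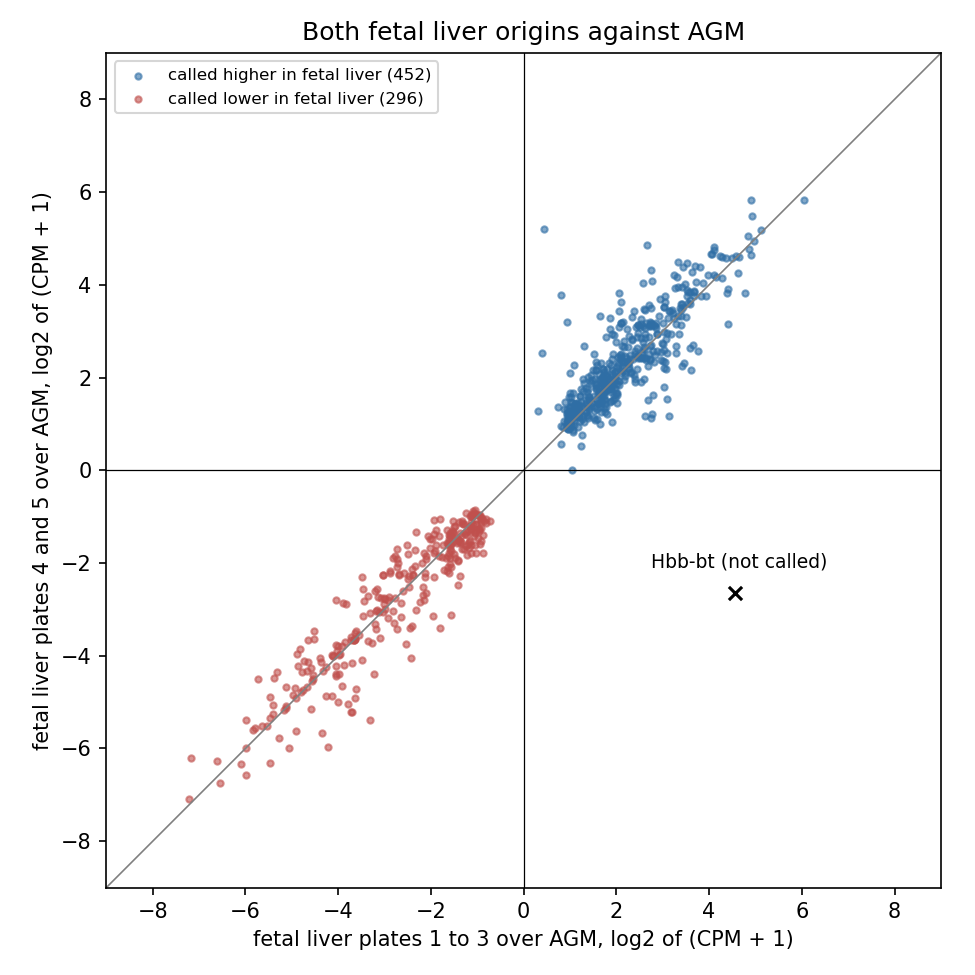
Log2 ratio of (CPM + 1) to AGM for fetal liver plates 1 to 3 (horizontal) and plates 4 and 5 (vertical), for the 452 genes called higher (blue) and 296 called lower (red), with Hbb-bt as a cross. Both axes share the AGM library, so the points along the diagonal are a description. Hbb-bt, which was not called, was above AGM in plates 1 to 3 and below it in plates 4 and 5.

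Markers of liver cells were present at low levels. Afp, the fetal protein of hepatoblasts, had no UMI in AGM and 20.01, 7.02, 1.05, 7.41 and 29.3 CPM in fetal liver, where 16.3% of cells held a UMI, from 1.22% on plate 3 to 42.7% on plate 5. It was at least 110-fold higher (adjusted p = 6.55e-05), and was the 1 gene called among 9 tested liver markers. The list summed to 56.1 CPM in AGM, 55.2 CPM on fetal liver plates 1 to 3 and 62.7 CPM on plates 4 and 5, and its most abundant member was Trf, transferrin, with 42.2 CPM in AGM and 29.5 CPM in fetal liver. Beside Afp, 5 tested markers had no UMI in AGM, Ttr, Hnf4a, Serpina1a, Fgb and Rbp4, with 14 to 83 UMIs in fetal liver, and did not pass. Alb, albumin, had 0.287 CPM in fetal liver. The part of liver cell RNA in the results above was not tested.

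Of the cell cycle lists, that of S phase had none of 50 genes called. In the G2 and M phase list 5 of 57 fell (8.77%, against 1.91% of all tested genes) and none rose, with 0 lower without plate 4. Among 24 G1 genes 2 rose (8.33%) and 4 fell (16.7%), against 0 and 1 without plate 4. Cdkn1c, an imprinted inhibitor of cyclin-dependent kinases, had 442 and 333 CPM in AGM and 51.0, 31.6, 76.6, 77.3 and 6.06 CPM in fetal liver (log2 fold change -2.83 ± 0.27, adjusted p = 5.51e-07). Cdkn1a, the inhibitor that p53 switches on, fell from 59.2 to 6.55 CPM, and Ccnd1 rose from 62.7 to 156 CPM. Of 30 immediate early genes 5 fell, none without plate 4 and 10 without AGM plate 1.

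Of 30 imprinted genes, which are read from 1 parental copy and many of which act on growth, 5 fell and none rose, with a median log2 fold change of -1.24. Igf2, a growth factor of the fetus, had 1133 and 1095 CPM in AGM and 49.1, 59.2, 18.5, 97.9 and 51.8 CPM in fetal liver (log2 fold change -4.09 ± 0.31, adjusted p = 4.41e-08). H19, the noncoding RNA beside it, fell from 728 to 147 CPM. Igf2bp1, an RNA-binding protein of fetal cells, fell from 326 to 51.9 CPM. Hmga2, which bends DNA and is typical of fetal blood cells, had 340.0 and 343 CPM in AGM and 149 to 205 CPM in fetal liver, and did not pass (adjusted p = 0.0513).

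Genes of oxidative stress and metabolism rose in a few cases. Of 31 FoxO and antioxidant genes 5 rose and 1 fell, and Sesn1, a p53 and FoxO target, had 25.1 and 24.7 CPM in AGM and 239, 224, 164, 203 and 116 CPM in fetal liver (log2 fold change 3.002 ± 0.32, adjusted p = 3.41e-06). Gstm1 and Txnip rose from 73.5 to 284 and from 82.5 to 195 CPM, and both lost their calls without plate 4. Abcg1, a cholesterol exporter, rose from 7.53 to 54.0 CPM, and Apoe fell from 662 to 39.7 CPM. None of 84 tested cytosolic ribosomal protein genes was called. Of the 84, 79 had plates that did not overlap with fetal liver higher, against 12.1% of all tested genes. Summed over the list, the level was 134000 CPM in AGM, 225800 CPM on fetal liver plates 1 to 3 and 232600 CPM on plates 4 and 5. When cells with at least 3 UMIs were counted in place of UMIs, 81 were called higher. For Rpl32 and Rps29, 100% of cells of both tissues held at least 3 UMIs, so such counts cannot show a difference in their level.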

How the data were processed

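The authors deposited 1 table of UMI counts per plate, not normalized, with gene symbols in rows and wells in columns. The submitters' processing notes name mm10, SAMtools, UMI-tools and featureCounts. No version, annotation or use of strand is stated there, so genes that overlap, lie antisense or are near copies may hold each other's reads. Of 22307 symbols 98.1% matched the GENCODE names of GRCm38. Cells were not clustered, and no doublet caller was run, since the protocol sorts individual cells.

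UMIs were summed per origin code and compared with the quasi-likelihood test of edgeR 4.0.16 in R 4.3.3, after TMM scaling and filterByExpr, with Benjamini-Hochberg adjustment over 15472 genes. The 2 bone marrow libraries were in the fit only to estimate the spread (2 residual and 18 prior degrees of freedom). AGM was assumed to vary like the rest. The ± after a log2 fold change is its size divided by the square root of F, an approximate standard error. CPM use TMM-scaled library sizes. Totals ran from 3384993 to 15977740 UMIs over the AGM and fetal liver plates, and AGM plate 2 kept 48 of 96 wells. A bound against no UMI uses a floor of 3 UMIs over the tissue. Intervals and floors are at 95% and cover counting error alone. Alternatives used limma 3.58.1 and DESeq2 1.42.0. The script was tested on simulated data.

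Named genes are the 15 largest rises and falls (called, at least 50 CPM, plates not overlapping, no predicted, Xist or Y chromosome genes), 3 called and 2 abundant genes of each of 41 lists, and 10 fixed genes. Families taken by symbol prefix leave out kinases, pseudogenes, antisense RNAs and assembly factors, a correction made after values were seen. Other list members were named after their values were seen. Members and lists were chosen with earlier results of these data known. Some members of the lists are not reported here by name.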

Additional observations from a re-analysis of the deposited data

Results flagged for a closer look

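Among 167 named genes, 24 had 1 of the 5 fetal liver plates set apart from the other 4 on the log2(CPM + 1) scale. Chance sets about 1 in 20 such groups apart, and 11 of the 24 stood apart by their lowest plate. Plate 5 was the lowest for Apoe (7.07 CPM), Gimap1 (119.8), Ier2 (14.5), Jun (0.673), Lmo2 (95.3), Ltb (116.5) and Lyl1 (86.5). Plate 5 was the highest for Arhgdib (946 CPM), Fos (0.337), Ifi30 (44.1), Pglyrp1 (499.5), Rac2 (1368), Tagln (0.673), Tpi1 (1362) and Tspan18 (0.673). Plate 3 was the lowest for Cd34 (186 CPM) and the highest for Klf2 (5.67). Plate 2 was the lowest for Klf6 (27.9 CPM) and Plvap (2.06) and the highest for Sncg (2.68). Plate 4 was the lowest for Igf2bp1 (32.2 CPM) and the highest for Edn1 (0.235) and Nrp1 (0.118). Plate 1 was the highest for Mmrn2 (1.19 CPM). The values of Edn1, Fos, Nrp1, Tagln and Tspan18 rest on 1 to 3 UMIs in all fetal liver cells. Of 3309 genes over 50 CPM on plate 4, 370 were over 3-fold lower on plate 5. Of the 370, 11 were called higher, 25 lower and 334 not called. Over all tested genes 2.92% were called higher and 1.91% lower. The reason for the difference between the plates was not tested.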

How the results depend on the processing

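Of the 452 and 296 calls, 451 and 277 kept their direction and 93 and 41 their call in every alternative that gave a value. The 748 calls became 2218 with AGM and fetal liver alone (1220 higher, 998 lower), 2170 with plates as libraries in limma (1002 and 1168), 348 when cells holding a UMI were counted (188 and 160), 2186 and 2164 without bone marrow origin 1 or 2 (1248 and 938, 1204 and 960) and 479 without fetal liver origin 2 (296 and 183). Counting cells that hold 3 UMIs or more, chosen after seeing the data, they became 2143 (1187 and 956). DESeq2 called 696 higher, and with no filter on low counts 447 were lower. With 1 plate left out, the calls ran from 181 to 875, the higher from 111 to 597 and the lower from 70 to 354, lowest without fetal liver plate 4, which also ended 47 of 111 named calls. The median log2 change of all tested genes was 0.047, and 0.201 without AGM plate 1 and 0.147 with no filter. With at least 1 UMI counted, Ecscr and H19 turned to 0.21 and 0.17. With at least 3, Ccnd2, Cks1b, Egfl7, Spi1 and Vim, not called otherwise, turned to 0.63, 0.50, 0.68, 0.47 and 0.53. For Ccnd2 100% of AGM cells and 92.1% of fetal liver cells held 3 UMIs or more. Its AGM count was thus at the ceiling. Without fetal liver origin 1 Hbb-bt was at -2.75. The causes were not tested. No paired analysis was possible because plates were summed per origin code and the summed libraries share no number. The depth gap between the tissues limits shares of cells with a UMI. Thinned values are given for Sparc and the counts of leading genes, and the other shares, that of Nrp1 among them, are not thinned.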
